A study of Mus musculus with 8 samples.

Results

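The dermal condensate and dermal papilla genes described here are Sox2, Sox18, Crabp1, Corin, Trps1, Rspo3, Fgf10, Fgf7, Alx4 and Tbx18. They were chosen by name from the 19938 mouse genes that the array's platform annotation ties to a row of its own, a row with exactly 1 gene symbol, and all 10 were found. Trps1 had 2 such rows, and the row with the highest mean stood for it. RNA of full-thickness skin from embryos at E17.5, on a mixed C57BL6/SV129 background, was measured on 8 single-colour Affymetrix arrays. The 4 control arrays carried RNA labelled wildtype for PPARgamma. The other 4 carried RNA labelled PPARgamma null, genotype PpargΔ/Δ, and are called labelled-null arrays here, because the Pparg row was not lower on them (log2 values of 8.94 ± 0.13 in control skin and 9.12 ± 0.10 on the labelled-null arrays, SD, n = 4 each). The labels give neither the deleted part of the gene nor the Cre or promoter behind the deletion, and no litter or sex, so p-values measure the spread between these individual RNAs. The epidermal keratin Krt5 and the dermal collagen Col1a1 lay at the 99.3th and 99.4th percentile of all rows by mean log2 value, as skin RNA holds both layers.

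The dermal condensate is a cluster of fibroblasts that gathers below each hair placode in the embryo, and it becomes the dermal papilla once the follicle grows down around it. Condensate and papilla cells send FGF, R-spondin and BMP-modulating signals to the follicle epithelium and receive Hedgehog and Wnt signals from it. Papilla cells make up a small part of whole skin, and most of the genes named above are also used by other skin cells: Sox18 by endothelium, Sox2 by Merkel and Schwann cells, and Trps1, Fgf7 and Fgf10 by wider mesenchyme. In RNA of whole skin, fewer cells of a type and less RNA per cell cannot be told apart.

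None of the 10 genes differed between control and labelled-null skin by limma at an adjusted p of 0.05, where 18 of the 15174 genes tested (0.119%) passed. The median log2 difference of the 10, labelled null minus control, was 0.02, beside 0.00 over all tested genes. Of the 10, 4 lay below control and 6 above, where 50.3% of all tested genes lay below, and the differences ran from -0.19 (Corin) to 0.14 (Fgf7) on the log2 scale. The 95% confidence limits of the fold change, labelled null over control, reached no lower than 0.737 (Alx4) and no higher than 1.32 (Crabp1). Every gene had overlapping groups, beside 2.45% of all tested genes whose groups did not overlap. At an unadjusted limma p under 0.05 there were 2 genes, Rspo3 above control and Fgf10 below it, beside 3.61% of all tested genes. Over the alternatives that count ran from 0 to 3. It was 3 when labelled-null array 1 was left out, with Corin as the added gene. It was 0 without control array 2, without labelled-null array 4, or with the replicate number as a block, and 1 without the filter on dim rows or without control array 3 or 4 or labelled-null array 2 or 3.

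**Figure D1:**
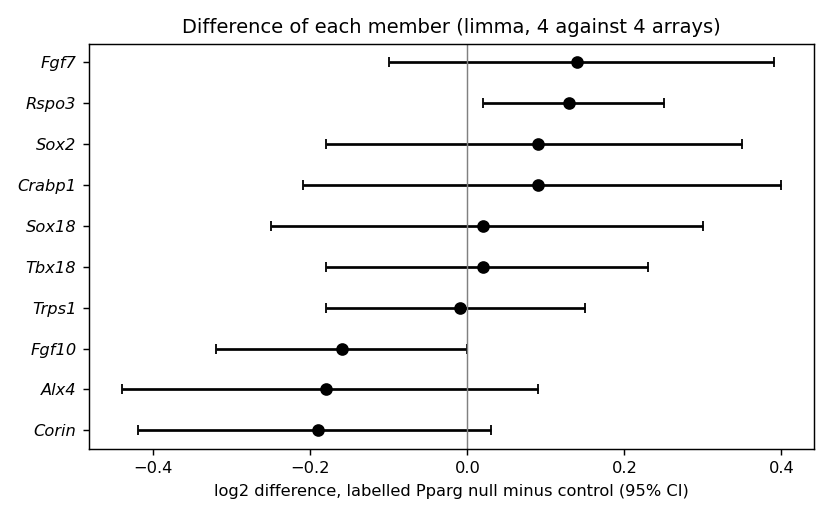
Log2 difference (labelled Pparg null minus control) of each gene, with the 95% confidence interval of the limma fit on 4 against 4 arrays. The point estimates lie between -0.19 and 0.14, and the intervals of Rspo3 and Fgf10 stop just short of 0.

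Among the transcription factors, Sox2, an HMG-box factor of the condensate of early-forming follicle types, read 6.19, 6.14, 6.44 and 6.66 on control arrays 1 to 4 and 6.54, 6.30, 6.59 and 6.34 on labelled-null arrays 1 to 4 (log2 values here and below). The highest and the lowest readings were both from control skin. The means were 6.35 ± 0.24 and 6.44 ± 0.14 (SD, n = 4 each), a difference of 0.09 (95% confidence limits -0.18 and 0.35; limma p = 0.475, adjusted p = 0.9995; exact two-sided permutation p = 0.543). It was 0.01 when control array 2 was left out and 0.19 when control array 4 was. The Merkel cell factor Atoh1 (-0.03) and the Schwann cell and melanocyte factor Sox10 (0.01) differed by less than their spread between arrays, and Krt20 of Merkel cells lay at the 25.6th percentile of all rows and was not tested.

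Sox18, a SOXF factor of the condensate and of vessels, read 9.07, 9.38, 9.31 and 9.44 in control skin and 9.39, 9.34, 9.57 and 8.98 on the labelled-null arrays. Control array 1 and labelled-null array 4 were low, and the others ran from 9.31 to 9.57. The group means were 9.30 ± 0.16 and 9.32 ± 0.25 (SD, n = 4 each), which leaves 0.02 (95% limits -0.25 and 0.30). The difference moved to 0.14 when labelled-null array 4 was left out and to -0.06 when array 3 of that group was. The endothelial genes measured beside it went both ways, with the vascular sialomucin Emcn at 0.20, the lymphatic hyaluronan receptor Lyve1 at -0.19, the VEGF receptor Kdr at -0.08 and the endothelial cadherin Cdh5 at 0.06. By limma 0 of them passed, and Emcn and Lyve1 were the 2 with an unadjusted p under 0.05, where 0 were left when control array 1 and labelled-null array 4 were both dropped. Of 10 endothelial markers 6 lay below and 4 above control with a median of 0.00. The log2 of their summed unlogged signals, in which the brightest markers weigh most, ran from 12.58 to 12.73 in control skin. It ran from 12.64 to 12.72 on the labelled-null arrays.

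Alx4, a paired-type homeodomain factor of mesenchyme, read 7.25, 7.57, 7.51 and 7.58 in control skin and 7.39, 7.31, 7.53 and 6.98 on the labelled-null arrays. The same arrays were low as for Sox18, control array 1 within its group and labelled-null array 4 within its group and over all. The means were 7.48 ± 0.16 and 7.30 ± 0.23 (SD, n = 4 each), a difference of -0.18 (95% limits -0.44 and 0.09; limma p = 0.168, exact two-sided permutation p = 0.314). Leaving out labelled-null array 4 gave -0.07, and leaving out control array 1 gave -0.25.

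Tbx18, a T-box factor first expressed in the prospective condensate, read 8.05, 8.01, 8.07 and 8.37 in control skin and 8.23, 8.16, 8.24 and 7.97 on the labelled-null arrays. Control array 4 stood above the other 3 of its group, and labelled-null array 4 was the lowest of all 8. The difference was 0.02 with an interval of -0.18 to 0.23, and its sign turned when single arrays were left out (-0.01 to 0.10).

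Trps1, a GATA-type repressor of the condensate and early follicle, read 10.52, 10.49, 10.35 and 10.48 in control skin and 10.56, 10.51, 10.46 and 10.25 on the labelled-null arrays. The difference was -0.01 with an interval of -0.18 to 0.15, and labelled-null array 4 was again the lowest. Its second row differed by -0.03, with 10.21 to 10.50 in control skin and 10.13 to 10.46 on the labelled-null arrays, and control array 3 was the lowest control array on the first row and the highest on the second. The difference was 0.02 with array weights and 0.07 when control array 1 and labelled-null array 4 were both left out, so no direction is given for Trps1.

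**Figure D2:**
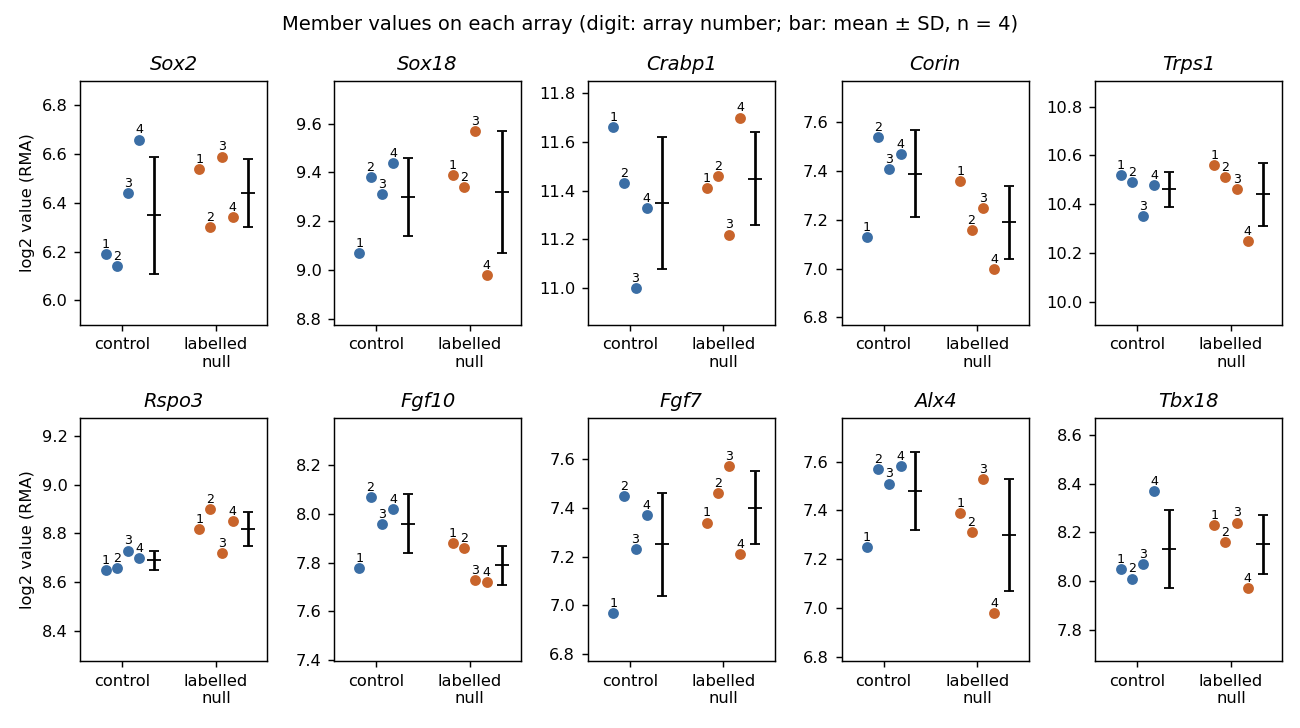
Log2 values of the 10 genes on each array, with control arrays on the left and labelled-null arrays on the right of each panel, all panels spanning 1 log2 unit. Digits give the array number and bars the mean ± SD (n = 4). The groups overlap in every panel, and labelled-null array 4 is the lowest array in 6 of the 10.

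Among the signals, Rspo3, a secreted R-spondin that strengthens Wnt signalling through LGR receptors, was the steadiest of the 10. It read 8.65, 8.66, 8.73 and 8.70 in control skin and 8.82, 8.90, 8.72 and 8.85 on the labelled-null arrays. All labelled-null arrays but array 3 lay above all control arrays. The means were 8.69 ± 0.04 and 8.82 ± 0.07 (SD, n = 4 each), 1.10-fold with an interval of 1.01 to 1.19 (limma p = 0.028, adjusted p = 0.9995, exact two-sided permutation p = 0.0571). Its difference stayed between 0.11 and 0.17 in the 8 fits without 1 array.

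Fgf10, an FGF ligand that mesenchyme sends to epithelium, read 7.78, 8.07, 7.96 and 8.02 in control skin and 7.88, 7.86, 7.73 and 7.72 on the labelled-null arrays. Control arrays 2, 3 and 4 lay above all labelled-null arrays, and control array 1 lay among them. The means were 7.96 ± 0.12 and 7.79 ± 0.08 (SD, n = 4 each), or 0.894-fold with an interval of 0.800 to 0.998 (limma p = 0.047, adjusted p = 0.9995, exact two-sided permutation p = 0.0857). Leaving out 1 array gave -0.22 to -0.13. Fgf7, keratinocyte growth factor, which binds the same epithelial splice form of FGFR2, read 6.97, 7.45, 7.23 and 7.37 in control skin and 7.34, 7.46, 7.57 and 7.21 on the labelled-null arrays. Control array 1 was the lowest of all 8. Fgf7 differed by 0.14 with an interval of -0.10 to 0.39, and by 0.05 without control array 1.

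Corin, a transmembrane serine protease of papilla cells that also acts in coat colour, read 7.13, 7.54, 7.41 and 7.47 in control skin and 7.36, 7.16, 7.25 and 7.0 on the labelled-null arrays. Control arrays 2, 3 and 4 lay above all labelled-null arrays and control array 1 lay below all but the lowest of them. The means were 7.39 ± 0.18 and 7.19 ± 0.15 (SD, n = 4 each), a difference of -0.19 (95% limits -0.42 and 0.03; limma p = 0.0854, adjusted p = 0.9995; exact two-sided permutation p = 0.171). Leaving out control array 1 gave -0.28 (limma unadjusted p = 0.0105, adjusted p = 0.9963), and leaving out labelled-null array 4 gave -0.13.

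Crabp1, a cytosolic carrier of retinoic acid in papilla and other mesenchymal cells, read 11.66, 11.43, 11.00 and 11.33 in control skin and 11.41, 11.46, 11.22 and 11.70 on the labelled-null arrays. Array 3 was the lowest of each group, and labelled-null array 4 and control array 1, low for most of the other genes, were the highest here. The difference was 0.09 with an interval of -0.21 to 0.40, and it ranged from -0.02 to 0.20 without 1 array.

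Fgf7 and Fgf10 share a receptor, and the values of Sox2 and Tbx18 over the arrays, given with their correlation further on, had an r that missed the adjusted threshold. For these 4 genes the 250 bases before the RefSeq start are shown here, 5′ to 3′ on the gene's strand, from assembly GRCm38.p6. Capitals mark a CCAAT box on either strand. The windows are chr2:126034408-126034657 (plus strand) for Fgf7, chr13:118714449-118714698 (plus strand) for Fgf10, chr3:34649745-34649994 (plus strand) for Sox2 and chr9:87731261-87731510 (minus strand) for Tbx18.
Fgf7: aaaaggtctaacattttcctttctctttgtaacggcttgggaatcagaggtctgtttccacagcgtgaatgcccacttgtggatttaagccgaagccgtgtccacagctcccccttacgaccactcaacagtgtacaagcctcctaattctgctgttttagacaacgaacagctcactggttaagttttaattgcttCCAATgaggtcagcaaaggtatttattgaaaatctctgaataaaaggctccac
Fgf10: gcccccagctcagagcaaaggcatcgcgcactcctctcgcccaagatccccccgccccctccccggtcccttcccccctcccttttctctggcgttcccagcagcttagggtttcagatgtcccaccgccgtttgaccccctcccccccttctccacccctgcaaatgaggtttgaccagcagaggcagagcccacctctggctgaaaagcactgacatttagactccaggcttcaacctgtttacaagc
Sox2: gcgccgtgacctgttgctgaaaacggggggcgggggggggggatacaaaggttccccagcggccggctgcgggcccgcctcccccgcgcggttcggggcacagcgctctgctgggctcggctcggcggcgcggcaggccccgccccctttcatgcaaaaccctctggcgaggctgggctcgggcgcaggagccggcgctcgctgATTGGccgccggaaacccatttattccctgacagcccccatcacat
Tbx18: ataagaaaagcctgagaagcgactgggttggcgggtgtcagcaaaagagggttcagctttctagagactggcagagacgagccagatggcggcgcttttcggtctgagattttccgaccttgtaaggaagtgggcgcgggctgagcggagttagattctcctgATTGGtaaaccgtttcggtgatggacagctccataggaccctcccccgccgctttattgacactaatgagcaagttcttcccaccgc

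RefSeq promoter windows were matched for 6 of the 10 genes, the 4 above with Corin and Crabp1. A CCAAT box (CCAAT, both strands) stood in 4 of the 6 windows, at -53 from the start in Fgf7, -46 in Sox2, -87 in Tbx18 and -17 in Corin, where 33.8% of all 32851 windows of this length held one. The letters TATAAA (for a TATA box), CTTTGA (for TCF/LEF), AACAAT (for SOX) and AGATAA (for GATA) had no match in the 6 windows. Of all windows, 12.4%, 13.8%, 9.42% and 9.99% held these letters. The direct repeat that PPAR and RXR dimers bind, searched on both strands as 2 copies of AGGTCA with 1 base between them, also had no match in the 6, and 0.0335% of all windows held it. The share of G and C ran from 43.6% in Fgf7 to 72.0% in Sox2. None of the motif letters overlapped each other in these windows, and a match is a description of letters only. Each motif was searched only in the spelling given here. A window without a match, that of Sox2 included, may therefore hold the motif in another spelling, which was not tested.

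The spread between arrays of one genotype was wide for most of the 10 genes. The within-group SD was 0.0982 at the median over all tested genes, and it was above this for all but Rspo3 (0.059), with Crabp1 (0.237), Sox18 (0.210), Sox2 (0.199) and Alx4 (0.199) the highest. Labelled-null array 4 was the lowest of the 8 for 6 genes, namely Sox18, Corin, Trps1, Fgf10, Alx4 and Tbx18, and the highest for Crabp1. Control array 1 was the lowest of its group for 6, namely Sox18, Corin, Rspo3, Fgf10, Fgf7 and Alx4. The mean of the 10 genes, relative to all arrays, was -0.11 and -0.13 on these 2 arrays, and elsewhere it lay between -0.03 and 0.11. Over all tested autosomal genes these 2 arrays stood at the same end of principal component 1, at -8.62 and -21.7, where the others ran from -3.12 to 9.02. The sign of such a component is arbitrary and gives no direction of level. The mean of all tested genes, relative to all arrays, was 0.00 on control array 1 and 0.01 on labelled-null array 4. Quantile normalization makes this mean nearly equal on all arrays, so it cannot show whether these 2 arrays were low as a whole. Without these 2 arrays 0 of the 10 genes passed, 3 lay below control and 7 above, and 2 had an unadjusted p under 0.05, beside 4.19% of all tested genes. These 2 were Corin (limma unadjusted p = 0.0137) and Fgf10 (0.0151), and Rspo3 was at 0.108.

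After the group means were removed, Sox18 and Alx4 had the highest correlation over the 8 arrays, with r = 0.99 and rho = 0.98. By exact permutation of arrays within groups, p was 0.00174 for r (0.0781 adjusted over 45 pairs) and 0.00347 for rho (0.156 adjusted). The 576 permutations can give no p below 0.00174, so 1 pair alone could not pass the adjustment, whatever its r. The r of Sox18 and Alx4 was 0.97 without the 2 arrays farthest from the Sox18 median and 0.97 without control array 1 and labelled-null array 4. Fgf7 had r = 0.87 with Sox18 (exact permutation p = 0.00694, adjusted 0.13) and r = 0.86 with Alx4 (exact permutation p = 0.00868, adjusted 0.13). Without the farthest 2 arrays these r were 0.63 and 0.54. Sox2 and Tbx18, with a larger p for r than these pairs, had r = 0.84 and rho = 0.81 (exact permutation p = 0.0122 and 0.0174, adjusted 0.137 and 0.234). Their r was 0.63 without the farthest 2 arrays and 0.86 without control array 1 and labelled-null array 4. Corin and Alx4 had r = 0.87 and rho = 0.74 (exact permutation p = 0.0208 and 0.0712, adjusted 0.179 and 0.408), and 0.35 without the farthest 2, so this relation rested on those arrays. Crabp1 and Alx4 had r = -0.75 and rho = -0.60 (exact permutation p = 0.0417 and 0.142, adjusted 0.208 and 0.500), and -0.90 without the farthest 2, but -0.19 without control array 1 and labelled-null array 4, so this relation rested on those arrays too. Over the 45 pairs r had a median of 0.34 and was positive in 31, and 0 pairs passed after adjustment, with 9 at an unadjusted p under 0.05. Without control array 1 and labelled-null array 4 the median r was 0.05. The median r and the counts of pairs were not taken for other tested genes. Whether the genes described here vary together more than other genes was therefore not tested.

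The difference of 2 genes on the same array was taken after the values were seen. Sox18 minus Alx4 was 1.82, 1.81, 1.79 and 1.86 on control arrays 1 to 4 and 2.00, 2.03, 2.04 and 2.00 on the labelled-null arrays. The groups did not overlap, at 1.82 ± 0.03 against 2.02 ± 0.02 (SD, n = 4 each), so the distance was 0.20 greater on the labelled-null arrays (exact two-sided permutation p = 0.0286, the smallest that 4 against 4 can give, and 0.214 adjusted over 45 differences). In 6 of the 45 differences, which share genes with each other, the groups did not overlap, beside 2.63% of the differences over all pairs of tested genes. Rspo3 minus Fgf10 was 0.87, 0.59, 0.78 and 0.68 in control skin and 0.94, 1.04, 0.99 and 1.13 on the labelled-null arrays. Fgf10 minus Fgf7 was 0.81, 0.62, 0.73 and 0.65 in control skin and 0.53, 0.40, 0.16 and 0.51 on the labelled-null arrays. The other 3 were Sox18 minus Corin (0.22 greater), Corin minus Fgf7 (smaller, -0.34) and Fgf7 minus Alx4 (0.32 greater). None of the 45 passed after adjustment (lowest adjusted exact permutation p = 0.214). These 6 already had the smallest p that 4 against 4 arrays can give. The adjusted test could therefore not pass them, and it does not decide whether they changed. No change of these genes relative to each other is called.

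**Figure D3:**
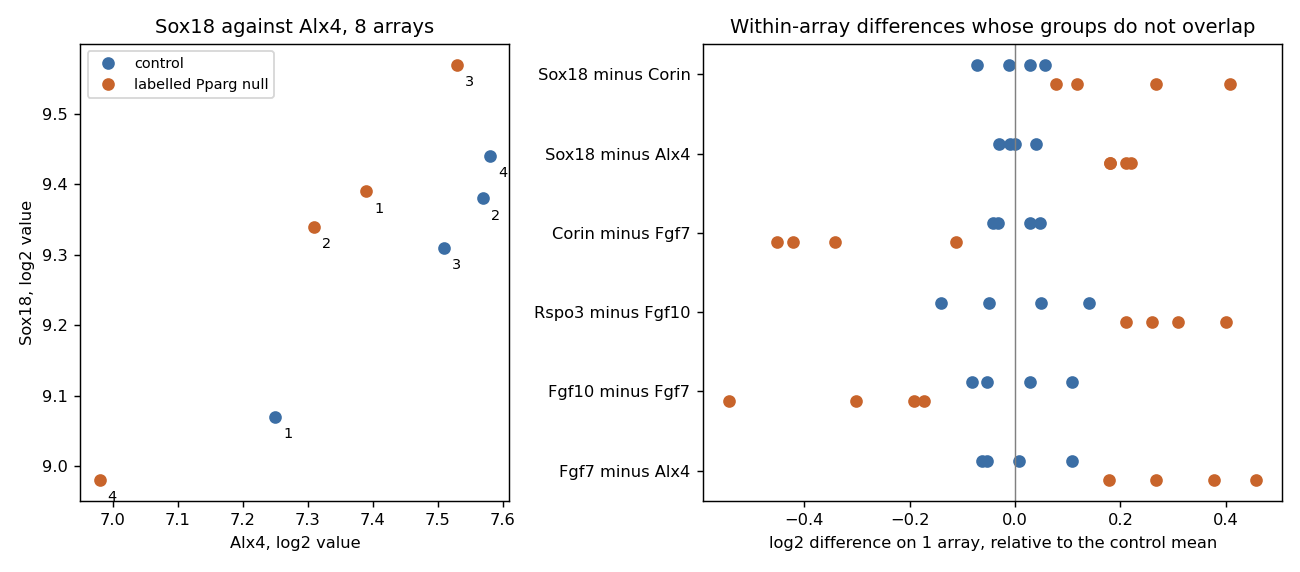
Left, log2 values of Sox18 (vertical) against Alx4 (horizontal) on the 8 arrays, with array numbers. Right, the 6 within-array log2 differences between 2 genes whose groups do not overlap, each set to a control mean of 0, with 1 point per array. Sox18 minus Alx4 shows the tightest groups, at 1.79 to 1.86 in control skin and 2.00 to 2.04 on the labelled-null arrays before centring.

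The other genes of the condensate and papilla stayed near control as well. Of 20 such genes 18 were tested, 10 lay below and 8 above control, with a median of -0.02, and 0 passed in either direction. The matrix proteoglycan Vcan differed by -0.13, the TGF-beta binding protein Ltbp1 by -0.14, and the BMP antagonist Nog by 0.11. The condensate factor Foxd1 differed by -0.02, the ligand Bmp4 by -0.16 and the Wnt effector Lef1 by 0.05, all with limma adjusted p = 0.9995. Without control array 1 and labelled-null array 4, 6 lay below and 12 above.

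The partners of the signals did not pass either. Of 10 genes of R-spondin and LGR signalling 8 lay below control (median -0.06, 0 passed), with the ligands Rspo1 at -0.19 and Rspo2 at -0.13 and the receptors Lgr4 at -0.13, Lgr5 at -0.05 and Lgr6 at -0.21. Rspo3 itself lay above control. Of 17 genes of FGF signalling 7 lay below and 10 above (median 0.00, 0 passed). The receptor Fgfr2 differed by -0.11 and Fgfr1 by -0.01, and the feedback inhibitor Spry1 (0.14), the placode ligand Fgf20 (0.16) and the target factor Etv5 (0.12) had the smallest p-values. Of 9 genes of the natriuretic peptide and agouti pathways, which hold substrates of Corin or act beside it, 7 lay below and 2 above (median -0.05, 0 passed), with the peptides Nppa at -0.06 and Nppc at 0.08 and the receptor Npr2 at -0.15. The agouti gene Asip was not analysed here. At an unadjusted limma p under 0.05 these 3 lists and that of the other condensate and papilla genes held 0.

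In the retinoid group that Crabp1 belongs to, 7 of 12 tested genes lay below and 5 above control (median -0.01, 0 passed). The serum retinol carrier Rbp4 had the widest difference, with 8.39, 8.73, 8.77 and 8.54 in control skin and 7.60, 8.16, 8.15 and 7.71 on the labelled-null arrays. Its groups did not overlap, and it missed the threshold (1.62-fold lower on the labelled-null arrays, limma adjusted p = 0.2758). The second retinoic acid carrier Crabp2 differed by 0.23 and the retinol transporter Stra6 by -0.12. Among 13 SOX relatives 5 lay below and 8 above (median 0.01, 0 passed), and Sox11 alone had groups that did not overlap, at 8.05 ± 0.09 against 8.20 ± 0.04 (SD, n = 4 each, limma adjusted p = 0.9995). The SOXF factors Sox7 and Sox17 differed by -0.07 and 0.07, and the follicle factors Sox9 and Sox21 by -0.19 each. When control array 1 and labelled-null array 4 were both dropped, 7 SOX relatives lay below and 6 above, and 3 had an unadjusted p under 0.05. Of 7 tested T-box and ALX relatives 3 lay below and 4 above (median 0.01, 0 passed), with Tbx1 at -0.14, Tbx5 at -0.19 and Alx1 at -0.09. Of 6 GATA factors 3 lay on each side (median 0.00, 0 passed), with Gata1 at 0.20, Gata2 at 0.14 and Gata3 at -0.11. At an unadjusted limma p under 0.05 stood 1 retinoid gene (Rbp4), 1 SOX relative (Sox11), 1 GATA factor (Gata1) and 0 T-box or ALX relatives.

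Markers of the follicle epithelium, the tissue that lies against the papilla, lay below control in 11 of 11 tested genes (median -0.22, 0 passed, 2 at an unadjusted limma p under 0.05), with Krt71 at -0.96, Krt27 at -0.36, Hoxc13 at -0.37 and Shh at -0.16. Their list mean relative to all arrays was -0.17, 0.18, 0.44 and 0.21 on control arrays 1 to 4 and -0.19, -0.09, 0.09 and -0.46 on labelled-null arrays 1 to 4. It was lowest on labelled-null array 4, where most of the 10 genes were lowest too, and its part in their values was not tested. Markers of dermal fibroblasts lay on both sides, 5 below and 5 above control (median 0.00), with Pdgfra at 0.05 and Dpt at -0.09. Of 7 tested white adipocyte markers 6 lay below control and 4 passed (median -0.88), with Fabp4 at -1.13, Lpl at -1.0 and Cd36 at -0.92, and their list mean was -0.42 to -0.25 on the labelled-null arrays and 0.19 to 0.43 in control skin. In the remaining marker lists (basal keratinocytes, Merkel cells, Schwann cells, melanocytes, smooth muscle, skeletal muscle, and macrophages with mast cells) 0 genes passed by limma, 1 (the mast cell protease Mcpt4, at -0.50) had an unadjusted p under 0.05, and the medians ran from -0.04 to 0.04. When control array 1 and labelled-null array 4 were both left out, the follicle epithelium markers lay below control in 11 of 11 with a median of -0.17, and 6 had an unadjusted p under 0.05.

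**Figure D4:**
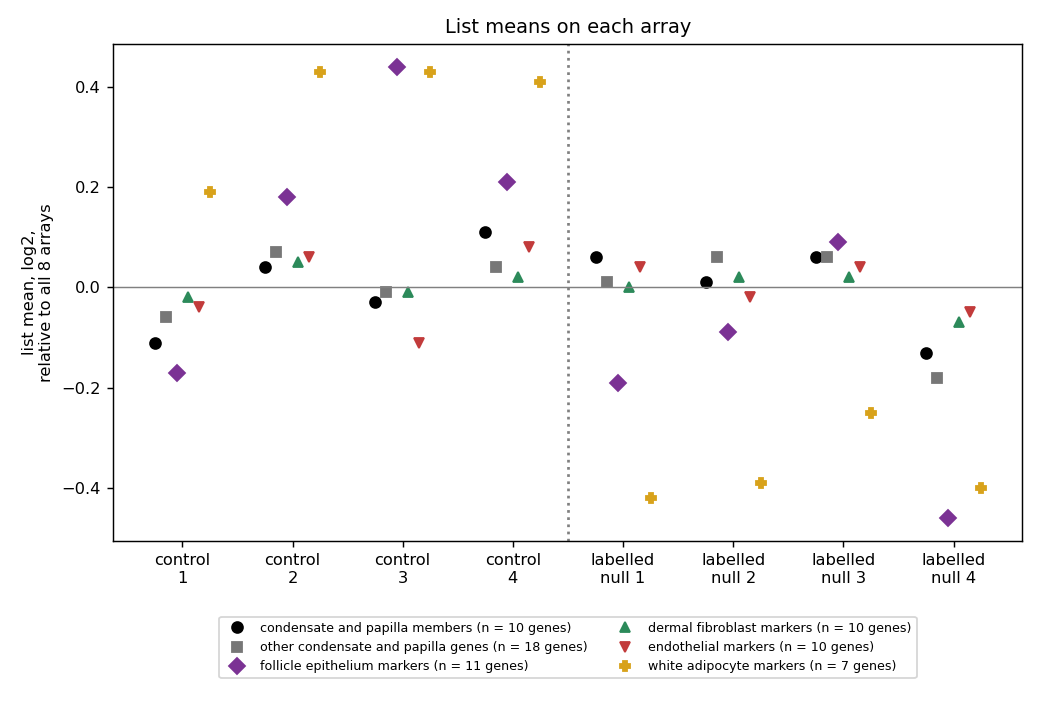
Mean log2 value of 6 gene lists on each array, relative to the mean over all 8 arrays, with control arrays left of the dotted line. The 10 condensate and papilla genes stay between -0.13 and 0.11, while the white adipocyte markers part the groups at -0.25 and 0.19.

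Each group held 2 arrays with high Xist, a transcript of female cells. Among Xist-high arrays the differences were -0.18 for Fgf10, 0.11 for Rspo3, -0.18 for Corin and -0.16 for Alx4, and among Xist-low arrays they were -0.14, 0.16, -0.21 and -0.19 in that order (2 against 2 arrays each, no test). The sign of Crabp1, Trps1 and Tbx18 turned between these pairs of arrays, with -0.03 and 0.22 for Crabp1, -0.14 and 0.11 for Trps1 and -0.11 and 0.15 for Tbx18.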

How the data were processed

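RNA of 8 skin samples (100 ng each, 5.5 μg of cDNA labelled) was hybridised to 1 array per sample. The authors deposited log2 values; the submitters' processing notes name RMA and Affymetrix Expression Console. RMA quantile-normalizes the arrays, which hides any change common to all transcripts. For versions and the annotation build, the sources used here give nothing. Array medians lay between 6.93 and 6.96, and pairs of arrays correlated at 0.989 to 0.994. The number of arrays limits the precision.

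Of 35556 rows 21789 had 1 gene symbol. Rows above the 30th percentile of their array on at least 4 of 8 arrays were kept, with the highest-mean row per gene, which left 15174 genes. Differences are labelled null minus control, from limma 3.58.1 (R 4.3.3, lmFit, eBayes, two-sided, Benjamini-Hochberg over all tested genes, threshold 0.05). The fit was checked on simulated data with planted differences wider than any that the 10 genes showed. That check does not show what the fit can detect at differences as small as theirs. Single values were tested by exact permutation over 70 assignments. The genes, lists and naming rule (all 10 genes, Pparg, the 3 genes of each list with the smallest p, and listed partners of the 10) were chosen with earlier results of these data known. The labels do not say whether replicate numbers pair the arrays, and the main fit did not pair them. Alternatives were other filters, scalings, priors, array weights, a replicate block, Xist as a covariate, and fits without 1 or 2 arrays. For 21698 rows the symbol was read from RefSeq through the gene ID, whether or not it changed.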

Additional observations from a re-analysis of the deposited data

Results flagged for a closer look

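In groups of 4 arrays, 1 array lay far from the rest of its group in 12 of 206 groups of values, where chance flags about 1 in 20. The gap to the nearest array is given as a share of the group's range. Among the 10 condensate and papilla genes this held for Tbx18 in control skin alone, with 8.37 on array 4 against 8.01 to 8.07 on the others (gap 0.8348), and without that array its difference was 0.10.

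Labelled-null array 4 was the far array for the natriuretic peptide receptor Npr2 (8.52 against 8.86 to 8.92, gap 0.8383), Shh of the hair germ (7.84 against 8.13 to 8.18, gap 0.834), the mean of the SOX relatives (7.73 against 7.82 to 7.83, gap 0.905) and the mean of the macrophage and mast cell markers (9.25 against 9.46 to 9.48, gap 0.889). Control array 1 was far for Sox7 (7.70 against 7.83, gap 1) and for the mean of the white adipocyte markers (7.88 against 8.10 to 8.13, gap 0.9029). Other far arrays were control array 4 for the matrix gene Dpt (11.85 against 11.76 to 11.77, gap 0.8617), control array 3 for Cdh5 (10.18 against 10.42 to 10.45, gap 0.8933), labelled-null array 1 for the mechanosensory channel Piezo2 (7.59 against 7.29 to 7.30, gap 0.9478) and the calcium-binding protein S100b (5.84 against 5.72, gap 0.976), and labelled-null array 3 for the smooth muscle gene Cnn1 (6.82 against 6.63 to 6.65, gap 0.8793). Their part in the differences was not tested beyond the fits without 1 array.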

How the results depend on the processing

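Of the 10 genes 0 passed the limma threshold in all 10 alternative settings and all 8 fits without 1 array, with a lowest adjusted p of 0.9621. Of 179 gene values under these settings 168 kept their direction. Of the 11 that turned, 2 were Trps1 (0.02 with array weights, 0.07 when control array 1 and labelled-null array 4 were both left out), and 9 came from fits without 1 array, where Sox18 ranged from -0.06 to 0.14, Crabp1 from -0.02 to 0.20, Trps1 from -0.05 to 0.05 and Tbx18 from -0.01 to 0.10. The other 6 genes kept their direction throughout, with Sox2 at 0.01 to 0.19 without 1 array. The median difference of the 10 was -0.01 to 0.08 over the fits without 1 array. Over the 18 settings Rspo3 had an unadjusted p under 0.05 in 12 (0.0109 to 0.108), Fgf10 in 11 (0.00704 to 0.13) and Corin in 3 (0.0105 to 0.216). In place of 18 genes, 3 to 15 passed the threshold without 1 array, 11 with Xist as a covariate and 1 with the replicate block. Deviations of arrays with the same number correlated at -0.31, 0.20, 0.05 and -0.03. Arrays of different number were not compared in this way, so whether the numbers pair the arrays was not tested. Fits with fewer arrays have less power.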
